A study of Mus musculus with 16 samples.

Results

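Wdr61, Marcks and Abca8b are 3 of the 17097 genes that arrays of mouse quadriceps muscle measured with at least 1 probe set of a single gene symbol. They were chosen for a small p in the comparison of Mfn2 KO with control muscle at 6 months of age, so every difference between those groups is given here as a description with no test. Their 7 probe sets, 3 for Wdr61, 3 for Marcks and 1 for Abca8b, are all accounted for. RNA came from 16 mice on standard chow, with 1 array per mouse. They formed 4 groups of 4, namely young controls and young Mfn2 KO mice, aged 6 months, and old controls and old Mfn2 KO mice, aged 22 months. Mfn2 encodes mitofusin 2, a protein that fuses the outer membranes of mitochondria. The promoter or Cre line behind the KO, and whether it was confined to muscle fibres, is not given in the sources used here. Each group held mice of replicate numbers 1 to 4, and family labels A and B occurred in old mice alone, C and D in young mice alone, and Other in all groups. Family B occurred in old controls alone, and family A mostly in old KO. KO and control mice of the same number differed in family for some numbers at both ages. Family and genotype can therefore not be fully told apart.

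WDR61 is a small WD-repeat protein. It is a subunit of the SKI complex, which feeds messenger RNA into the cytoplasmic exosome for decay, and of the PAF1 complex, which travels with RNA polymerase II during elongation. MARCKS is held at the inner face of the plasma membrane by its myristoyl group and a basic effector domain, which also binds calmodulin, actin and phosphoinositides. Phosphorylation by protein kinase C releases it from the membrane. ABCA8B belongs to the A subfamily of ATP-binding cassette transporters, membrane proteins that mostly move lipids, and its gene lies among those of its close relatives Abca5, Abca6, Abca8a and Abca9.

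Values are log2 signals per probe set, normalized by the authors with RMA, where a difference of 1 is a doubling. Array medians lay between 4.58 and 4.65, and the number of arrays limits the precision. Arrays of the same replicate number resembled each other across groups, and Xist, which is transcribed from the inactive X chromosome of females, lay between 3.53 and 4.12 in numbers 1 and 2 and between 5.47 and 6.26 in numbers 3 and 4. KO and control were therefore also compared within each number. Skeletal muscle fibre markers, 10 genes from Acta1 to Des, averaged between 10.4 and 11.6 in single arrays. The targeted gene Mfn2 (brighter probe set 1448131_PM_at) was lower in KO in 3 of 4 numbers in young and in 4 of 4 in old mice. On this probe set Mfn2 averaged 8.80 ± 0.60 in young control and 8.45 ± 0.074 in young KO, with overlapping ranges. In old mice Mfn2 averaged 8.68 ± 0.36 in control and 7.74 ± 0.96 in KO, where replicate 3 stood at 6.32 (log2, SD, n = 4 each). Its second probe set, 1451900_PM_at, gave 4 of 4 young and 0 of 4 old pairs with KO lower. Where these probe sets lie relative to the deleted part was not analysed here. Limma, fitted to the 8 young arrays over 45037 probe sets, called 0 at an adjusted p under 0.05 (percent called 0) and 638 at an unadjusted p under 0.05. With the replicate number as a block the counts were 0 and 4206. By p, the brightest probe sets of Wdr61, Marcks and Abca8b stood at ranks 352, 176 and 3737 of all probe sets in the unblocked young fit and at 18, 101 and 126 in the blocked one. With 1 probe set per gene the ranks were 147, 80 and 1434 unblocked. They were 1, 7 and 9 in a blocked fit of all 16 arrays, which was not planned and changed both the block and the arrays. None was called. The genes were chosen for a small p in this contrast, so the ranks follow from that choice and nothing is read from them.

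Wdr61 was read by its brightest probe set, 1434196_PM_at. In young control muscle it measured 7.45, 7.62, 6.44 and 6.05 in replicates 1, 2, 3 and 4, and in young KO muscle 8.29, 8.12, 7.82 and 7.18. KO was higher within every number, although the groups overlapped, since KO replicate 4 lay below control replicates 1 and 2. The means were 6.89 ± 0.77 and 7.85 ± 0.49 (log2, SD, n = 4 each), a difference of 0.96 or 1.95-fold. The within-number differences were 0.83, 0.50, 1.38 and 1.13. Of all probe sets, 0.0688% differed by as much or more in this direction.

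The other probe sets of Wdr61 did not share this difference. Probe set 1448102_PM_a_at averaged 6.14 ± 0.95 in young control and 6.39 ± 0.66 in young KO muscle (log2, SD, n = 4 each). Its within-number differences were 0.19, -0.065, 0.71 and 0.19. Probe set 1459985_PM_at averaged 6.61 ± 0.17 and 6.63 ± 0.22 (log2, SD, n = 4 each), with differences of 0.085, 0.11, 0.12 and -0.24. The mean over the 3 probe sets was 0.41 higher in young KO, against 0.96 on the brightest one. Over the 16 arrays the brightest probe set correlated with the others at r = 0.71 and r = 0.45, and after removal of group and replicate number means at 0.37 and -0.039. A level of Wdr61 therefore depends here on which probe set is read.

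**Figure D1:**
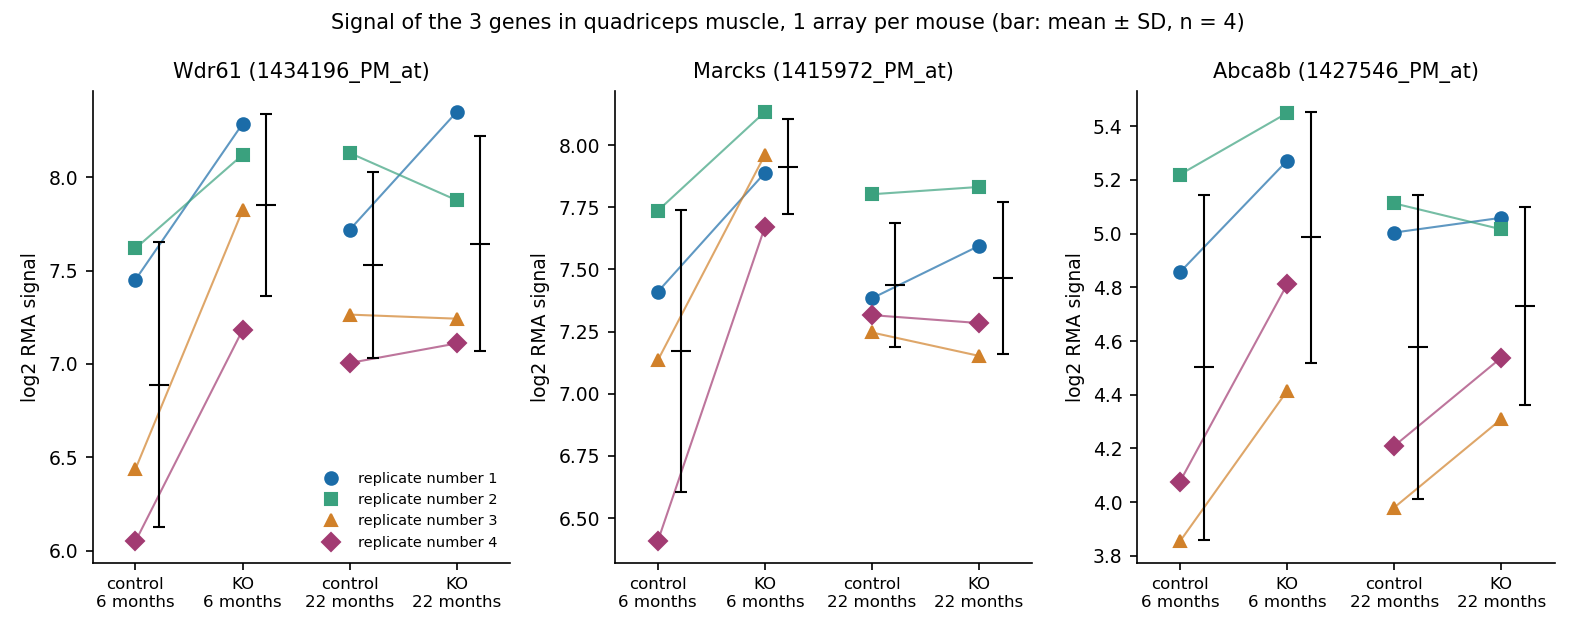
Log2 RMA signal (y axis) of the brightest probe set of Wdr61, Marcks and Abca8b in control and KO muscle at 6 and 22 months (x axis). Marker shape and colour give the replicate number, lines join KO and control of 1 number, and black bars give mean ± SD (n = 4). All 12 young lines run upward, while 5 of the 12 old lines run downward.

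Marcks differed alike on its 3 probe sets. On the brightest, 1415972_PM_at, young control muscle measured 7.41, 7.74, 7.13 and 6.41 in replicates 1, 2, 3 and 4, and young KO muscle 7.89, 8.13, 7.96 and 7.67. The groups overlapped through control replicate 2, which lay above KO replicate 4, and control replicate 4 was the lowest array of the 16. The means were 7.17 ± 0.57 and 7.91 ± 0.19 (log2, SD, n = 4 each), a difference of 0.74 or 1.67-fold, with within-number differences of 0.48, 0.40, 0.83 and 1.26. A share of 0.167% of all probe sets differed by as much or more in this direction. Without control replicate 4 the difference was 0.49.

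Probe set 1415971_PM_at of Marcks was 0.63 higher in young KO (1.55-fold, differences 0.46, 0.52, 0.56 and 0.98) and 1415973_PM_at 0.56 higher (1.47-fold, differences 0.40, 0.51, 0.39 and 0.94). Each was higher in 4 of 4 numbers. The 3 probe sets correlated with each other at r from 0.84 to 0.96 over the 16 arrays, and at 0.71 to 0.84 after removal of group and replicate number means. The probe table gives all of them the same source sequence, so they are not independent measurements.

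Abca8b has 1 probe set, 1427546_PM_at, and its signal was low. It lay between 1.0 and 2.52 above the median of the 23 nonspecific control probe sets of its array, and above the brightest of these in 0 of 16 arrays. By that measure the brightest probe sets of Wdr61 and Marcks were above in 12 and 13 of 16 arrays, 1459985_PM_at and 1448102_PM_a_at of Wdr61 in 6 and 7, and 1415971_PM_at and 1415973_PM_at of Marcks in 10 and 2. Young control muscle measured 4.86, 5.22, 3.85 and 4.08 in replicates 1, 2, 3 and 4, and young KO muscle 5.27, 5.45, 4.41 and 4.81. Numbers 3 and 4 were low in both groups, and KO replicates 3 and 4 lay below control replicates 1 and 2. The means were 4.50 ± 0.64 and 4.99 ± 0.47 (log2, SD, n = 4 each), a difference of 0.48 or 1.40-fold, with within-number differences of 0.42, 0.23, 0.56 and 0.73. A share of 0.719% of all probe sets differed by as much or more in this direction.

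In all, 5 of the 7 probe sets were higher in young KO in 4 of 4 replicate numbers, where 9.17% of all probe sets were, and 0 of 7 had young groups without overlap, against 0.724% of all. The genes were chosen on this contrast, so nothing is read from these counts.

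**Figure D2:**
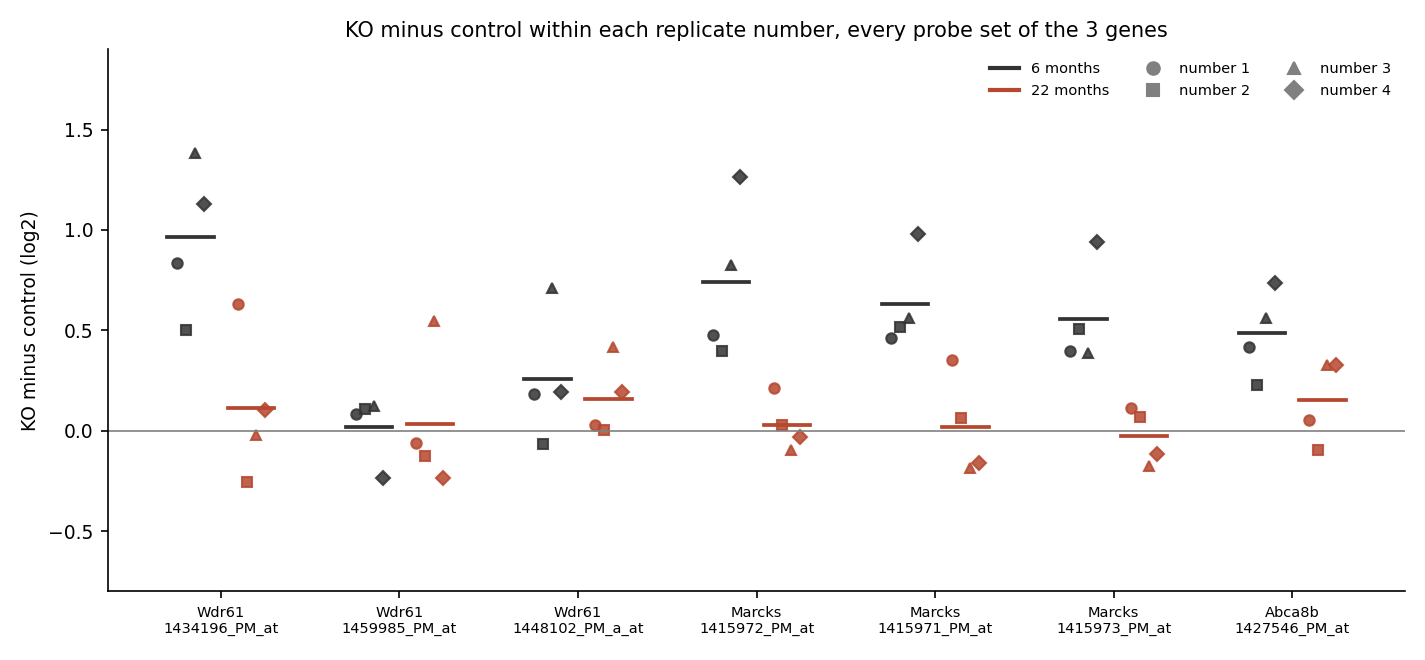
KO minus control on the log2 scale (y axis) for each of the 7 probe sets (x axis), within replicate numbers 1 to 4 (marker shapes), at 6 months (dark) and 22 months (red), with horizontal bars for the means. The 3 Marcks probe sets have all their young differences above 0 and old means between -0.027 and 0.029, and 2 of the 3 Wdr61 probe sets have young means of 0.020 and 0.26.

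The genes were chosen on a contrast of young mice, and the old mice were read for the same differences at 22 months. Whether the fit behind the choice took its spread from old arrays as well is not given in the sources used here. In old mice the differences were not detected. Wdr61 (1434196_PM_at) measured 7.72, 8.13, 7.26 and 7.01 in old control replicates 1, 2, 3 and 4 and 8.35, 7.88, 7.24 and 7.11 in old KO. Old KO replicate 1 was the highest array, and KO was higher in 2 of 4 numbers. The means were 7.53 ± 0.50 and 7.64 ± 0.58 (log2, SD, n = 4 each), a difference of 0.12 with a standard error (SE) of 0.32 and a 95% interval from -0.61 to 0.84. Limma on the 8 old arrays gave an adjusted p of 1.0. The exact two-sided permutation p over the 70 splits of these mice was 0.743, where 0.0286 is the smallest possible. The other Wdr61 probe set with a mean near 0 in young mice, 1459985_PM_at, differed by 0.031 (SE 0.23) in old mice.

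Marcks (1415972_PM_at) measured 7.38, 7.80, 7.25 and 7.32 in old control and 7.59, 7.83, 7.15 and 7.28 in old KO replicates 1, 2, 3 and 4. The groups covered nearly the same range. The difference was 0.029 (SE 0.19, 95% interval -0.41 to 0.46), with an adjusted p of 1.0 in limma and an exact permutation p of 0.914. With the replicate block the interval was -0.18 to 0.24. The other Marcks probe sets differed by 0.017 (SE 0.32) and -0.027 (SE 0.32) in old mice, and KO was higher in 2 of 4 numbers on each.

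Abca8b measured 5.0, 5.11, 3.98 and 4.21 in old control and 5.06, 5.02, 4.31 and 4.54 in old KO replicates 1, 2, 3 and 4. KO was higher in 3 of 4 numbers, by 0.33 in numbers 3 and 4 and by 0.055 in number 1, and lower by 0.097 in number 2. The difference was 0.15 (SE 0.29, 95% interval -0.49 to 0.80), with an adjusted p of 1.0 in limma and an exact permutation p of 0.60. Adjusted over the 3 genes, each exact permutation p was 0.914. These unblocked tests leave the differences between replicate numbers in the spread. Swapping KO and control within numbers gave exact two-sided p of 0.75 for Wdr61, 0.875 for Marcks and 0.375 for Abca8b. The smallest possible p of that test is 0.125, so it could not reach 0.05. With the replicate block the interval was -0.080 to 0.39 for Abca8b and -0.20 to 0.43 for Wdr61. The young differences chose the genes and are not set against these intervals.

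Among the 7 probe sets, 1 was higher in KO in 4 of 4 old pairs, against 6.62% of all probe sets. It was 1448102_PM_a_at of Wdr61, at 0.029, 0.0019, 0.42 and 0.19 (mean 0.16, SE 0.45, limma adjusted p = 1.0). Limma called 0 of 45037 probe sets for genotype in old mice (percent called 0) and 297 at an unadjusted p under 0.05, or 0 and 2298 with the replicate block. On the brightest probe sets the young minus old genotype difference was 0.85 for Wdr61, 0.71 for Marcks and 0.33 for Abca8b. It was above 0 in 4 of 4 numbers for each. The other Wdr61 probe sets gave -0.012 (1459985_PM_at, 2 of 4) and 0.095 (1448102_PM_a_at, 3 of 4). Those of Marcks gave 0.61 (1415971_PM_at) and 0.59 (1415973_PM_at), each in 4 of 4. The share of all probe sets above 0 in 4 of 4 was not counted. This difference contains the young contrast and was not tested.

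Age comparisons share the young arrays that chose the genes and are given as values only. The order of the group means was the same for the 3 genes on their brightest probe sets: young control lowest, then old control, old KO and young KO. Between neighbours in that order the means differed by less than the larger SD, with 1 exception, young KO above old KO in Marcks by 0.45 (larger SD 0.31), and there too the ranges overlapped. Probe set 1415971_PM_at of Marcks had the same order. The others did not: old control was lowest in 1459985_PM_at and old KO highest in 1448102_PM_a_at of Wdr61, and old KO lay below old control in 1415973_PM_at of Marcks. In control muscle Wdr61 was 0.64 higher at 22 than at 6 months, in 4 of 4 numbers, Marcks 0.27 and Abca8b 0.074 higher, each in 3 of 4. Leaving out single arrays gave 0.36 (without young control replicate 4) to 0.88 for Wdr61, 0.011 (without the same array) to 0.45 for Marcks, and -0.14 (without young control replicate 3) to 0.31 (without young control replicate 2) for Abca8b, so the sign for Abca8b depended on the arrays. The other Wdr61 probe sets differed with age in control muscle by -0.076 (1459985_PM_at) and 0.21 (1448102_PM_a_at). In KO muscle old mice were lower by a mean of 0.21 for Wdr61 in 3 of 4 numbers, 0.45 for Marcks in 4 of 4 and 0.26 for Abca8b in 4 of 4. The other Marcks probe sets, 1415971_PM_at and 1415973_PM_at, were lower in 4 of 4 too, at -0.44 and -0.41. Those of Wdr61 differed by -0.065 (1459985_PM_at) and 0.11 (1448102_PM_a_at, higher in 3 of 4). Without single arrays the KO value of Wdr61 ran from -0.44 (without old KO replicate 1) to -0.030 (without old KO replicate 4), and that of Abca8b from -0.45 (without young KO replicate 3) to -0.10 (without young KO replicate 2). Old control muscle compared with young KO muscle differed by -0.32 for Wdr61, -0.48 for Marcks and -0.41 for Abca8b.

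Replicate numbers also differed in these genes. On average over the 4 groups, numbers 1 and 2 were above numbers 3 and 4 by 0.93 for Wdr61 (1434196_PM_at), 0.45 for Marcks (1415972_PM_at) and 0.85 for Abca8b. For 1448102_PM_a_at of Wdr61 the gap was 1.26, larger than any mean genotype difference above. Within each of the 4 groups both arrays of numbers 1 and 2 lay above both of numbers 3 and 4 for 6 of the 7 probe sets, and in 3 groups for 1415972_PM_at. Of all probe sets, 19.9% did so in the 4 groups. The number of the labels, the Xist signal and the SD of an array moved together, and their part in these values was not tested.

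The nearest measured protein-coding genes in RefSeq order were read beside each gene, 2 on either side. Next to Wdr61 lies Dnaja4, a J-domain co-chaperone of the heat shock protein 70 family, and its pattern was close to that of the brightest Wdr61 probe set. Dnaja4 (1418591_PM_at) measured 8.03, 8.15, 7.17 and 7.17 in young control and 8.73, 8.57, 8.46 and 7.70 in young KO replicates 1, 2, 3 and 4. The difference was 0.73, with KO higher in 4 of 4 numbers, and in old mice it was 0.11, higher in 2 of 4. Its other probe set (1418592_PM_at) differed by 0.59 in young and 0.23 in old mice.

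Over the 16 arrays the Wdr61 probe set 1434196_PM_at correlated with the Dnaja4 probe sets at r = 0.93 for both, and at 0.71 for both after removal of group and replicate number means. The other Wdr61 probe sets were less alike. For 1448102_PM_a_at of Wdr61 the values were 0.56 and 0.69, and after removal 0.43 and 0.16. For 1459985_PM_at they were 0.32 and 0.51, and after removal 0.13 and 0.25. The probe set of Wdr61 that differed in young KO was thus closer to the neighbouring gene than to the other probe sets of its own gene. Dnaja4 was not alone in this, since Marcks (1415972_PM_at) correlated with the Wdr61 probe set 1434196_PM_at at 0.85, and at 0.68 after removal. The probe table gives 1434196_PM_at a source sequence of its own, and ties 1448102_PM_a_at and 1459985_PM_at to a RefSeq transcript of Wdr61. Which transcript 1434196_PM_at binds was not tested, and its name as Wdr61 rests on the table alone. Acsbg1, beyond Dnaja4, was 0.065 higher in young KO. On the other side of Wdr61, Crabp1, which encodes a retinoic acid binding protein, was 0.27 higher in 4 of 4 numbers, and Hykk differed by -0.24.

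**Figure D3:**
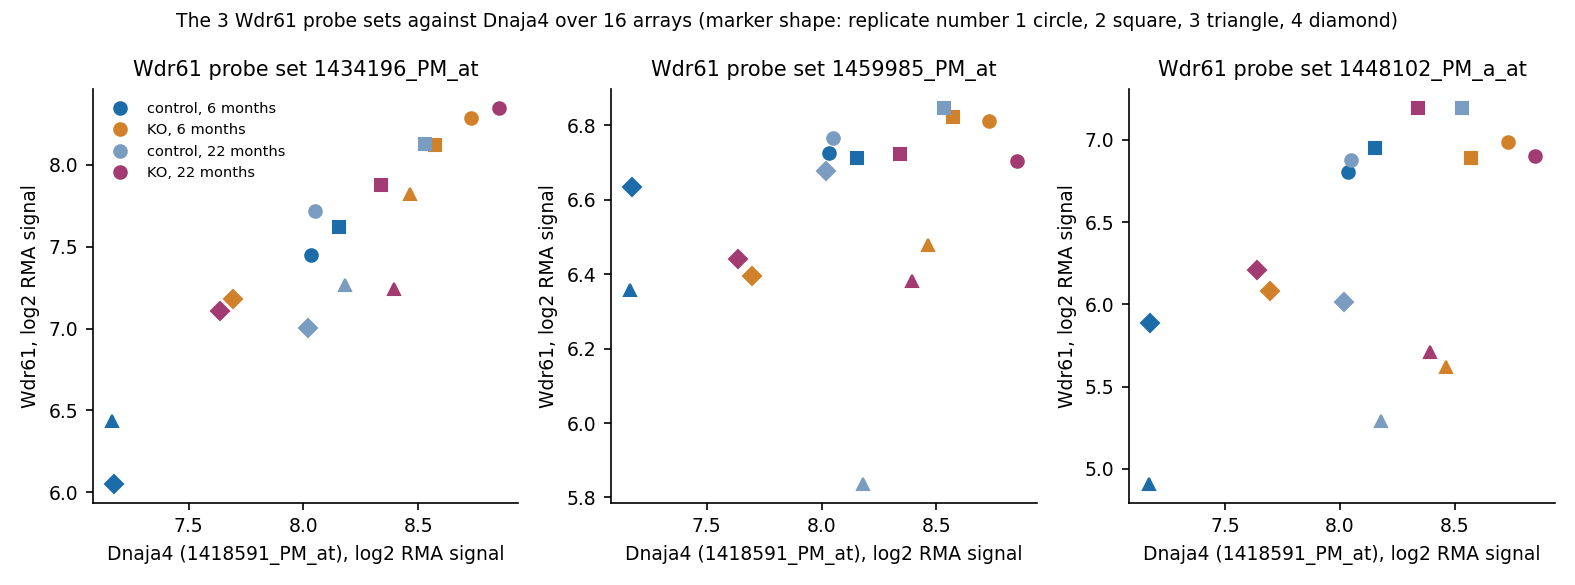
Log2 RMA signal of each Wdr61 probe set (y axes) against Dnaja4 probe set 1418591_PM_at (x axis) in 16 arrays; colour gives the group and shape the replicate number. The points of 1434196_PM_at lie along a line (r = 0.93), while those of 1459985_PM_at (r = 0.32) and 1448102_PM_a_at (r = 0.56) lie lower for replicate number 3 (triangles).

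No partner of WDR61 was called. Of 14 genes of the SKI complex and the cytoplasmic exosome, 12 were measured, and limma called 0 in either direction at either age. In young KO 5 of 12 were higher (median -0.0022) and in old KO 3 of 12 (median -0.037), where 47.8% and 48.4% of all genes were higher (medians -0.0056 and -0.0041). Skiv2l, the helicase of the SKI complex, differed by -0.036 in young and -0.19 in old mice. Ttc37, its scaffold, differed by 0.047 and 0.14. The exosome subunits Exosc2 (-0.058 and 0.11) and Exosc8 (-0.053 and -0.085) had small values as well. Of the 5 other PAF1 complex genes, 3 were higher in young and 1 in old KO, with 0 called. They included Rtf1 at 0.20 and -0.058, Leo1 at -0.0012 and -0.18, Cdc73 at 0.023 and -0.098, and Ctr9 at -0.049 and 0.048.

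Of 15 relatives, kinases and binders of MARCKS, 14 were measured, and 4 were higher in young KO (median -0.053) and 7 in old KO (median -0.00073), with 0 called at either age. Marcksl1, the closest relative of Marcks, was 0.16 higher in young KO and 0.27 lower in old KO, where it was lower in 4 of 4 numbers. Prkce, protein kinase C epsilon, was 0.22 lower in young KO in 4 of 4 numbers and 0.28 higher in old KO in 4 of 4. Prkcq, the protein kinase C theta of muscle and T cells, differed by -0.14 and 0.13, and the atypical kinase Prkci by 0.11 and 0.11. Of 13 phosphoinositide kinase and phospholipase C genes, 9 were higher in young KO (median 0.032) and 6 in old KO (median -0.0061), with 0 called. Pip5k1a, which makes the lipid that MARCKS binds, differed by 0.19 and 0.13, the phospholipases Plce1 by 0.032 and 0.20 and Plcd1 by -0.063 and 0.11, and the kinase Pip4k2c by 0.022 and 0.095. The RefSeq neighbours of Marcks gave 0.13 for Hdac2, 0.12 for Hs3st5, -0.25 for Rfpl4b and -0.16 for Fam229b in young mice.

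Among the ABCA transporters, the values of the genes next to Abca8b lay near its own in young mice. Abca8a, the adjacent gene and closest relative, was 0.40 higher in young KO, with within-number differences of 0.45, 0.24, 0.34 and 0.58. Abca9 (1440879_PM_at) was 0.46 higher, with differences of 0.78, 0.35, 0.30 and 0.42. Abca5 (1434474_PM_at) was 0.32 higher and Abca6 0.16 higher, each in 3 of 4 numbers. In old mice the differences were -0.028 for Abca8a, 0.052 for Abca9, 0.026 for Abca5 and 0.11 for Abca6. The dimmer probe sets of Abca9 (1458929_PM_at) and Abca5 (1459391_PM_at) differed by -0.055 and -0.074 in young mice, so these genes too depend on the probe set read. The genes of this cluster are alike in sequence, and whether their probe sets cross-react was not tested.

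After removal of group and replicate number means, Abca8b correlated with Abca8a at r = 0.59 with Abca9 (1440879_PM_at) at 0.35, with Abca6 at 0.23 and with Abca5 (1434474_PM_at) at -0.0082 over the 16 arrays. As deposited the values were 0.75, 0.78, -0.53 and 0.74. On the other side of Abca8b, 1700012B07Rik and Fam20a differed by -0.078 and -0.099 in young mice. Over the whole family, 11 of 15 other ABCA genes were measured, 6 were higher in young KO (median 0.043) and 6 in old KO (median 0.0093), with 0 called. Those outside the cluster included Abca12 at -0.056 and -0.23, Abca4 at 0.12 and 0.12 and Abca7 at -0.015 and -0.11 in young and old mice.

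**Figure D4:**
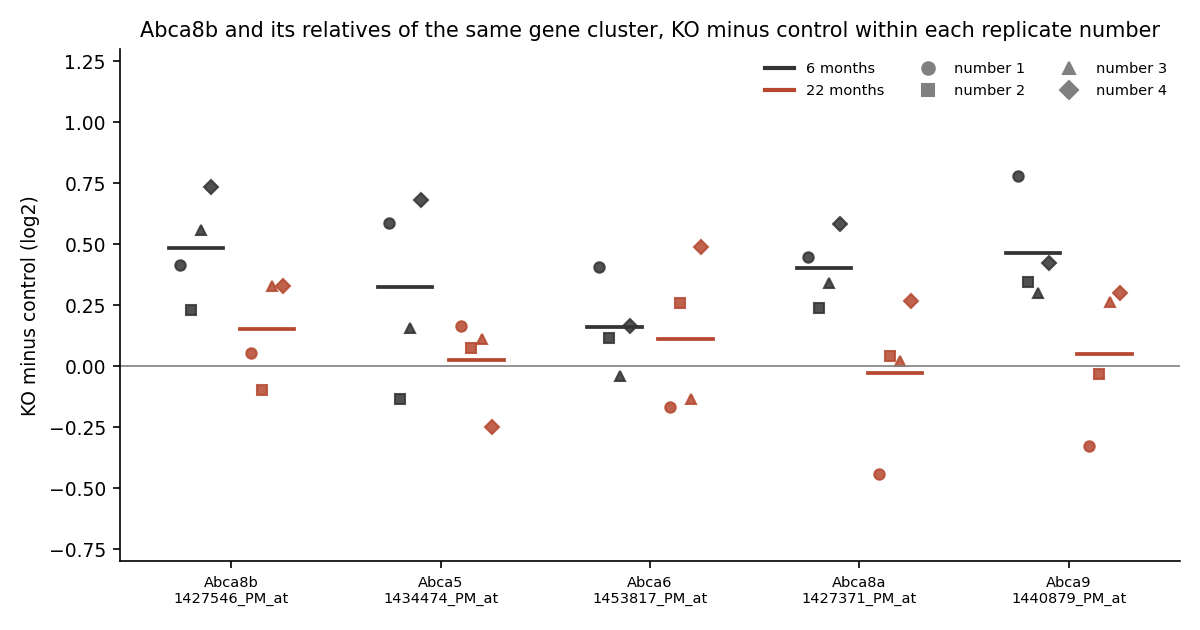
KO minus control on the log2 scale (y axis) for Abca8b and for Abca5, Abca6, Abca8a and Abca9 (brightest probe sets, x axis), within replicate numbers 1 to 4 (marker shapes), at 6 months (dark) and 22 months (red), with bars for means. Abca8b, Abca8a and Abca9 have all 4 young differences above 0, and old means of 0.15, -0.028 and 0.052.

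Markers of muscle fibres and of other cells were also compared between KO and control muscle, as a description. Fewer cells of a type cannot be told apart from less RNA per cell in whole muscle. Of all genes, 47.8% were higher in young KO and 48.4% in old KO. Of 10 muscle fibre markers, 5 were higher in young KO (median 0.098) and 6 in old KO (median 0.054). Their list mean was 0.32 higher in young KO, in 3 of 4 numbers, with within-number differences of 1.06, 0.17, 0.50 and -0.45. The list was split. Myh7 (1.51), Tnnt1 (0.92) and Myh2 (0.68) had the largest young differences, each higher in 3 of 4 numbers. Myh7 ran from 6.02 in number 1 to -2.45 in number 4. Ckm, Myh4, Tnnt3 and Des were higher in 0 of 4. Of 9 measured fibroblast and fibro-adipogenic markers 7 were higher in young KO (median 0.24). Their mean signal lay between 7.19 and 7.76 in young control and between 7.32 and 7.86 in young KO arrays, higher within 4 of 4 numbers. All 8 endothelial markers were higher in young KO (median 0.24), with means of 7.06 to 7.77 in control and 7.36 to 7.87 in KO arrays, again higher in 4 of 4. In old mice 5 of 9 and 6 of 8 were higher (medians 0.018 and 0.064), and each list mean was higher in 2 of 4 numbers. Macrophage markers were higher in 7 of 8 in young KO (median 0.19) and 5 of 8 in old KO (median 0.072), with list means of 5.08 to 5.50 in young control and 5.10 to 5.82 in young KO arrays.

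The 3 measured fat cell markers, Adipoq, Lep and Retn, were lower in young KO (median -1.25). Their list means were 5.74 to 7.03 in young control and 4.75 to 5.55 in young KO arrays. In old KO the 3 were higher on average (median 0.37). Their list mean was higher there in only 2 of 4 numbers, with differences of -0.32, 0.84, -0.21 and 1.72. Pericyte and smooth muscle markers were higher in 4 of 4 in young KO (median 0.10; list means 7.98 to 8.74 and 8.30 to 8.81), and Schwann cell markers in 3 of 3 (median 0.095; 4.95 to 5.10 and 4.99 to 5.46). Satellite cell markers were higher in 1 of 4 (median -0.13; 4.87 to 5.05 and 4.63 to 5.03). Limma called 0 genes of these lists at either age. The SD within an array was higher in young KO in 4 of 4 numbers (mean 0.022), as was the 3 prime minus 5 prime signal of the 18S RNA control (mean 0.19). In old mice both were higher in 2 of 4. The same 3 prime minus 5 prime signal in young mice differed by 0.017 for the pyruvate carboxylase control and 0.13 for transferrin receptor (higher in 3 of 4 each). For the Gapdh and beta actin controls it differed by 0.0080 and -0.038 (higher in 2 of 4 each). The part of these markers and array measures in the young values of Wdr61, Marcks and Abca8b was not tested.

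The genes most alike were sought among the genes with a mean signal at or above the median of all genes, 8548 for Wdr61 and Marcks and 8549 for Abca8b, over the 16 arrays. These correlations are descriptions, since the arrays share replicate number and normalization. On the values as deposited, Wdr61 was closest to Cxcl12, a chemokine of stromal cells (r = 0.94), Dnaja4 (0.93) and Trmt2b, a transfer RNA methyltransferase (0.92). Cxcl12 was 0.55 higher in young KO and 0.065 higher in old KO. Marcks was closest to Itgb1, the beta1 integrin (0.87), Gabpa, an ETS family transcription factor (0.86), and Ddx17, an RNA helicase (0.85). Abca8b was closest to Arhgap42 (0.97), Wipf3, a binder of WASP proteins (0.97), and Tcf4, a basic helix-loop-helix transcription factor (0.97).

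After removal of group and replicate number means, Wdr61 was closest to Izumo1r (r = 0.95), Cxcl12 (0.92) and the sorting nexin Snx20 (0.90). Marcks was closest to Twsg1, a secreted binder of bone morphogenetic proteins (0.96), Vps50, a subunit of an endosomal tethering complex (0.94), and the ubiquitin ligase Rnf139 (0.93). Abca8b was closest to Rbck1, a subunit of the linear ubiquitin ligase complex (0.90), the growth factor Fgf10 (0.87) and the endothelin converting enzyme Ece1 (0.87). Cxcl12 was named for Wdr61 by both measures. Izumo1r correlated with Wdr61 at -0.095 on the values as deposited, and Fgf10 with Abca8b at -0.52. With each other, the brightest probe sets correlated at r = 0.85 for Wdr61 and Marcks, 0.81 for Wdr61 and Abca8b and 0.74 for Marcks and Abca8b, and after removal at 0.68, 0.38 and 0.27.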

How the data were processed

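From each mouse, 25 ng of total RNA was amplified and hybridised to an Affymetrix mouse array. Each probe set has a log2 value, which the authors obtained by RMA in the affy package, per the submitters' processing notes, which give no versions; quantile normalization in RMA can lessen a change shared by most genes. The probe table has 28898 probe sets with 1 symbol, 551 with several and 15588 with none; 104 control probe sets were left out of tests. The brightest probe set by mean over all arrays stood for a gene. Gene symbols and neighbours were taken from RefSeq, assembly GRCm38.p6, and the 3 genes matched by gene ID. Array quality was read from the control probe sets.

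The fits used limma 3.58.1 in R 4.3.3 (empirical Bayes with a trend, two-sided, Benjamini-Hochberg over 45037 probe sets, adjusted p under 0.05) on the 8 old or 8 young arrays, checked on simulated data. Same-numbered arrays of different groups correlated between 0.386 and 0.795 in their deviations from group means (24 pairs, median 0.720). Arrays of different numbers and groups correlated between -0.782 and 0.752 (72 pairs, median -0.507), so the ranges overlapped. The number was also fitted as a block. The labels do not say what it stands for. Genes named from a list are up to 4 with the largest difference in old mice, since 0 were called. Genes named as alike are the 3 highest correlations by each measure. The 3 genes, the lists and the tests were chosen with earlier results of these data known. Reading every probe set of Dnaja4 and of the Abca cluster, and the RefSeq neighbours, was decided after seeing the data. Alternatives were the arrays in the fit, the block, filters, array scale, probe set, family and leaving out arrays. Figures were drawn with matplotlib 3.10.9.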

Additional observations from a re-analysis of the deposited data

Results flagged for a closer look

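Wdr61 probe set 1459985_PM_at stood at 5.84 in old control replicate 3, far below the nearest of its group at 6.68. Without that array its old genotype difference went from 0.031 to -0.20. Mfn2 (1448131_PM_at) in old KO replicate 3 stood at 6.32, with the nearest of its group at 8.01. These are 2 of 44 groups of 4 arrays read in this way for the 3 genes, Dnaja4 and Mfn2, and chance flags about 1 in 20.

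Prkce was lower in KO within every replicate number in young mice and higher within every number in old mice, and the young minus old difference was -0.50. The difference was not tested. It is 1 of 104 list genes read for such a pattern.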

How the results depend on the processing

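The replicate block left each difference as it was and changed no call. For genotype in old mice its SE and adjusted p in limma were 0.14 and 0.932 for Wdr61, 0.092 and 0.975 for Marcks and 0.10 and 0.906 for Abca8b, with 95% intervals of -0.20 to 0.43, -0.18 to 0.24 and -0.080 to 0.39. Under the other alternatives 0 probe sets were called at either age, except with the block, all 16 arrays and without young control replicate 4, chosen after seeing the data, where 1 was called (Gsto1, 1.14, adjusted p = 0.0438). In that fit Wdr61 (1434196_PM_at) was 0.88 higher in young KO, given as a description because this contrast chose the genes.

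Leaving out single arrays moved the young differences between 0.68 and 1.21 for Wdr61, 0.49 and 0.93 for Marcks and 0.27 and 0.72 for Abca8b, on the brightest probe sets. The other Wdr61 probe sets crossed 0, at -0.064 to 0.097 (1459985_PM_at) and -0.15 to 0.53 (1448102_PM_a_at). Those of Marcks ran from 0.44 to 0.80 (1415971_PM_at) and from 0.36 to 0.76 (1415973_PM_at). For genotype in old mice the ranges, which crossed 0, were -0.12 to 0.32 (Wdr61), -0.093 to 0.15 (Marcks) and -0.045 to 0.33 (Abca8b). They were -0.20 to 0.14 for 1459985_PM_at, -0.19 to 0.44 for 1448102_PM_a_at, -0.22 to 0.23 for 1415971_PM_at and -0.26 to 0.19 for 1415973_PM_at. With family Other alone, 1 mouse a group and 2 in young control, the old difference was -0.032 for Marcks, -0.16 for 1415971_PM_at and -0.24 for 1459985_PM_at, and the young difference of the last was -0.28. For Wdr61 the young difference with family Other alone was 0.43 on the brightest probe set and -0.27 on 1448102_PM_a_at. Centring array medians or equalizing array SDs kept every sign of the 3 genes on their brightest probe sets.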
